A study of Mus musculus with 8 samples.

Results

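The genes described here are the F-box and Kelch substrate adaptors of the cullin-RING ubiquitin ligases, 83 of the 15039 genes in an RNA sequencing table of the mouse prefrontal cortex (PFC). A gene was taken as a member when its symbol began with *Fbxl*, *Fbxo*, *Fbxw* or *Klhl* followed by a digit, or was *Btrc*. This gave 16 *Fbxl* genes, whose proteins carry leucine-rich repeats, 29 *Fbxo* genes with other or no known substrate domains, 8 *Fbxw* genes together with *Btrc*, whose proteins carry WD40 repeats, and 29 *Klhl* genes, whose proteins carry a BTB domain and Kelch repeats. Of the 83, 82 are protein-coding and 1, *Fbxl12os*, is a long noncoding RNA on the strand opposite *Fbxl12*. In the annotation used here 118 symbols match the rule, and the other 35, of which 16 are *Fbxw* genes, were not analysed here.

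Cullin-RING ligases attach ubiquitin to proteins by way of exchangeable adaptors that choose the substrate. F-box proteins bind SKP1 on the CUL1 scaffold, whereas BTB-Kelch proteins bind CUL3 directly and grip the substrate with their Kelch propeller. In neurons such adaptors act on Wnt signaling, the circadian clock, glutamate receptors, the cytoskeleton and mitochondria. RNF146 itself is a RING ligase outside the cullin family that recognizes poly-ADP-ribosylated Axin, and β-TrCP, the product of *Btrc*, recognizes the phosphorylated β-catenin that the Axin complex makes.

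The samples were PFC libraries of 4 mice that overexpressed Rnf146 and of 4 control mice that overexpressed eGFP. All were male, wild-type C57BL/6NCrljOri mice, aged 6 weeks when the PFC of both hemispheres received AAV2/1-hsyn-RNF146-eGFP or, in the controls, AAV2/1-hsyn-eGFP, and the tissue was taken 4 weeks later. Both vectors use the human synapsin promoter, which limits their expression to neurons, and the sequenced Rnf146 mice had been chosen for overexpression and a social deficit. The deposited values are on a log2 scale and centred within each pair of libraries with the same replicate number, so that each gene carries 4 independent pair differences (Rnf146 minus eGFP). The libraries of a pair therefore mirror each other around 1 midpoint per gene, and the groups cannot overlap wherever the 4 differences have one sign. Read totals are not held by these values, and the depth is unknown. *Rnf146* (chromosome 10 of GRCm39, 29216737 to 29238438, minus strand), whose vector and endogenous reads are counted together, rose in all 4 pairs by 2.64 ± 0.13 log2 units (SD, n = 4 pairs; adjusted p = 3.2e-07, limma with Benjamini-Hochberg adjustment).

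None of the 83 adaptor genes passed the test between Rnf146- and eGFP-overexpressing mice. At an adjusted p of 0.1 or less (limma with the replicate pair as a block, Benjamini-Hochberg over every gene in the table), 0 of 83 members were called, against 188 genes of the whole table, or 1.25% (0.818% higher and 0.432% lower). At an unadjusted p below 0.05, 10 members (12%) stood beside 12.4% of all genes. The differences had one sign in all 4 pairs in 20 members (24.1%) against 20.6% of all genes, split into 10 higher (12% against 10.4%) and 10 lower (12% against 10.2%). All of these shares lay close to those of the whole table. A fit that ignored the pairs and took the 8 centred libraries as independent called 18 members, 10 higher and 8 lower, which is 21.7% against 21.5% of all genes.

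The members' differences were small as well as mixed in direction. The mean over the 4 pairs was above 0 in 38 members and below 0 in 45, with a median of -0.0073 log2 units beside 0.00086 over all genes. It ran from -0.16 for *Klhl3* to 0.40 for *Klhl13*, and 67 members (80.7%) lay within 0.1 of 0, against 79.4% of all genes. The spread between pairs was of the same order, with a median SD of 0.091 for the members and 0.098 for all genes. The 95% interval of the difference (limma) lay inside ± 0.2 for 59 members (71.1%, against 66.3% of all genes) and inside ± 0.3 for 80. For most adaptors the pairs, with a variance partly shared across genes, thus bound a difference to a narrow range around 0 on the deposited scale. Weakly expressed genes are compressed on that scale. For each log2 unit by which a normalized count changes, the value moves by 0.328 units at a count of 100 and by 0.740 units at 1000.

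**Figure D1:**
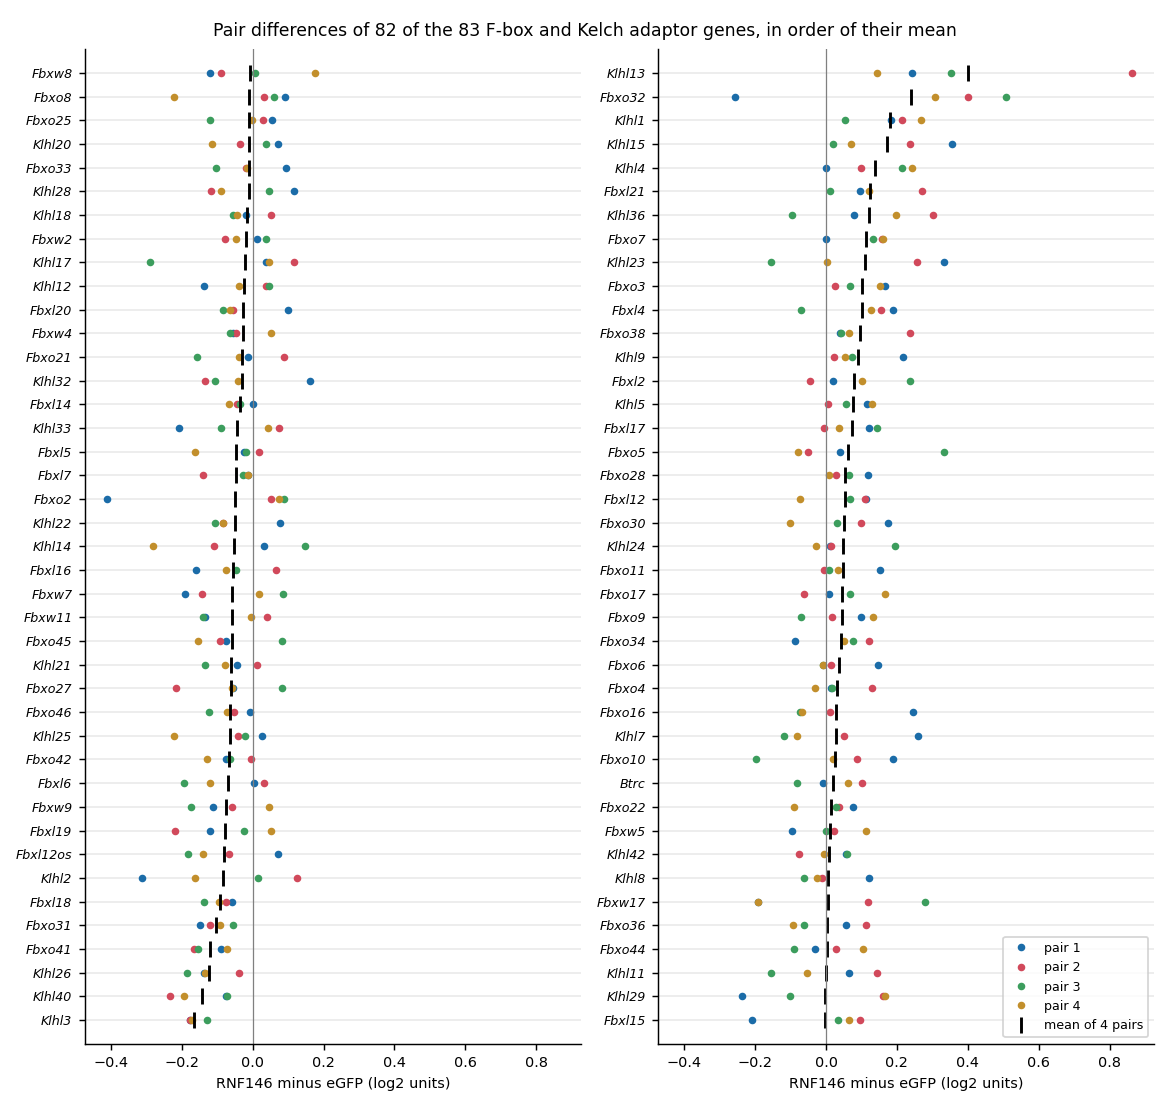
Differences between Rnf146- and eGFP-overexpressing libraries (log2 units, horizontal axis) for 82 of the 83 adaptor genes, 1 row per gene, ordered by the mean. Coloured points are the 4 pairs and the black bar is their mean. Most means lie within 0.1 of 0, and the widest rows, such as *Klhl13* and *Fbxo32*, have pairs more than 0.5 apart.

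By subfamily, the median difference was -0.036 for *Fbxl*, 0.024 for *Fbxo*, -0.018 for *Fbxw* with *Btrc* and -0.011 for *Klhl*. The medians of single pairs ran over a similar or wider range, from -0.050 to 0.0016 for *Fbxl* and from -0.11 to 0.047 for *Fbxw* with *Btrc*. The *Klhl* genes were the most dispersed of the subfamilies. Their means held both ends of the whole member range, and 20 of the 29 (69.0%) lay within 0.1 of 0, against all 9 of *Fbxw* with *Btrc*. In bulk tissue a lower value can come from fewer cells of a type or from less RNA per cell, and these values cannot tell the 2 apart.

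**Figure D2:**
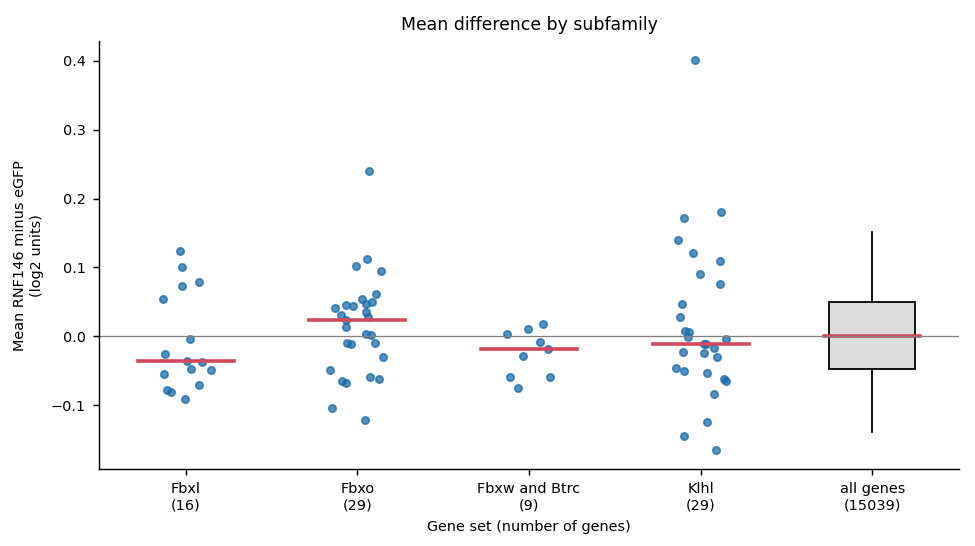
Mean difference between Rnf146- and eGFP-overexpressing mice (log2 units, vertical axis) for each member, by subfamily, with the number of genes below each name. Points are genes, red lines are medians, and the grey box of all 15039 genes spans the quartiles with whiskers at the 5th and 95th percentiles. The medians of the subfamilies lie between -0.036 and 0.024, and *Klhl13* and *Fbxo32* stand highest.

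Among the adaptors of Wnt signaling, no difference passed the test and the intervals were narrow. *Btrc* (chromosome 19 of GRCm39, 45352111 to 45518453, plus strand) had pair differences of -0.0088, 0.10, -0.081 and 0.063, which average 0.019 ± 0.081 (SD, n = 4 pairs) with a 95% interval of -0.091 to 0.13. Its paralog *Fbxw11*, which encodes the other β-TrCP, had a mean of -0.059 and an interval of -0.17 to 0.054. The pairs of both β-TrCP genes fell on either side of 0. *Fbxw7*, whose product targets cyclin E, MYC and Notch, had differences of -0.19, -0.14, 0.085 and 0.017, with pairs 1 and 2 below 0 and the others above. *Klhl12*, a CUL3 adaptor for Dishevelled, had a mean of -0.023 (-0.14 to 0.090), *Fbxl14*, an adaptor for Snail-family factors, had -0.037, and *Fbxo11*, an adaptor for BCL6, had 0.047. The 6 genes of this list had a median of -0.030.

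The clock adaptor *Fbxl21* encodes an F-box protein that binds the cryptochromes, the repressors of the circadian clock. It differed by 0.095, 0.27, 0.0098 and 0.12 in the 4 pairs, above 0 in each, with a mean of 0.12 ± 0.11 (adjusted p = 0.384, limma). *Fbxl21* is weakly expressed, and on a scale of estimated log2 normalized counts its mean difference was 0.36, without a call there either. The cryptochrome genes in the list of substrates and partners were not called. The lowest of the 19 genes of that list in the table was *Per1*, a clock gene and β-TrCP substrate, at -0.21 ± 0.28 (adjusted p = 0.423, limma).

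The 10 neuronal and synaptic adaptors had a median difference of -0.052, with 2 means above 0 and 8 below. *Klhl1*, a neuronal actin-binding Kelch gene, was the highest and *Fbxo41*, a neuron-specific F-box gene, the lowest. The eGFP libraries 1 to 4 gave *Klhl1* (chromosome 14 of GRCm39, 96340172 to 96756540, minus strand) values of 8.47, 8.45, 8.53 and 8.42, and the Rnf146 libraries gave 8.65, 8.67, 8.59 and 8.69. All 4 pair differences were above 0, the smallest being 0.054 in pair 3. The mean difference was 0.18 ± 0.091 (95% interval 0.069 to 0.29; adjusted p = 0.185, limma), and 0.62 on the scale of estimated log2 normalized counts, since *Klhl1* lies in the compressed low part of the scale. *Fbxo41* had -0.090, -0.17, -0.15 and -0.073, below 0 in each pair, with a mean of -0.12 ± 0.046 (adjusted p = 0.308, limma).

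The other neuronal adaptors lay nearer to 0. *Fbxo31*, an adaptor for cyclin D1 that is also known in axon growth, was below 0 in all 4 pairs with a mean of -0.10 ± 0.040 (adjusted p = 0.376, limma). The means were -0.059 for *Fbxo45*, which pairs with the PHR ligase at synapses, -0.026 for *Fbxl20*, an adaptor for the active-zone protein RIM1, and -0.054 for *Fbxl16*. *Klhl17* and *Klhl24*, both of which bind kainate receptor subunits, had means of -0.022 and 0.047. The pairs of these 5 genes included both signs. *Klhl17* held the farthest single value, -0.29 in pair 3 against 0.038 to 0.12 in the others.

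The 5 F-box genes of the glycoprotein list had means between -0.062 (*Fbxo27*) and 0.045 (*Fbxo17*). *Fbxo2*, the neuron-rich member of this group, had values of 10.39, 10.16, 10.15 and 10.15 in eGFP libraries 1 to 4 and 9.99, 10.22, 10.23 and 10.23 in the Rnf146 libraries. The first pair stood apart at -0.41, while the others were 0.050, 0.087 and 0.075. Its mean of -0.049 ± 0.24 turned to 0.071 without the first pair. *Fbxo44*, which overlaps *Fbxo2* on the opposite strand, had -0.031 in that pair and a mean of 0.0026. *Fbxo6* had a mean of 0.035.

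Both genes of the mitochondrial list were above 0 on average. *Fbxo7*, the gene of a recessive parkinsonism, had differences of -0.000085, 0.16, 0.13 and 0.16 and a mean of 0.11 ± 0.076 (95% interval -0.0012 to 0.23; adjusted p = 0.408, limma). *Fbxl4*, mutated in a mitochondrial DNA depletion syndrome, had 0.19, 0.15, -0.070 and 0.13 and a mean of 0.10 ± 0.12. Each had 1 pair below 0, pair 1 for *Fbxo7* and pair 3 for *Fbxl4*.

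**Figure D3:**
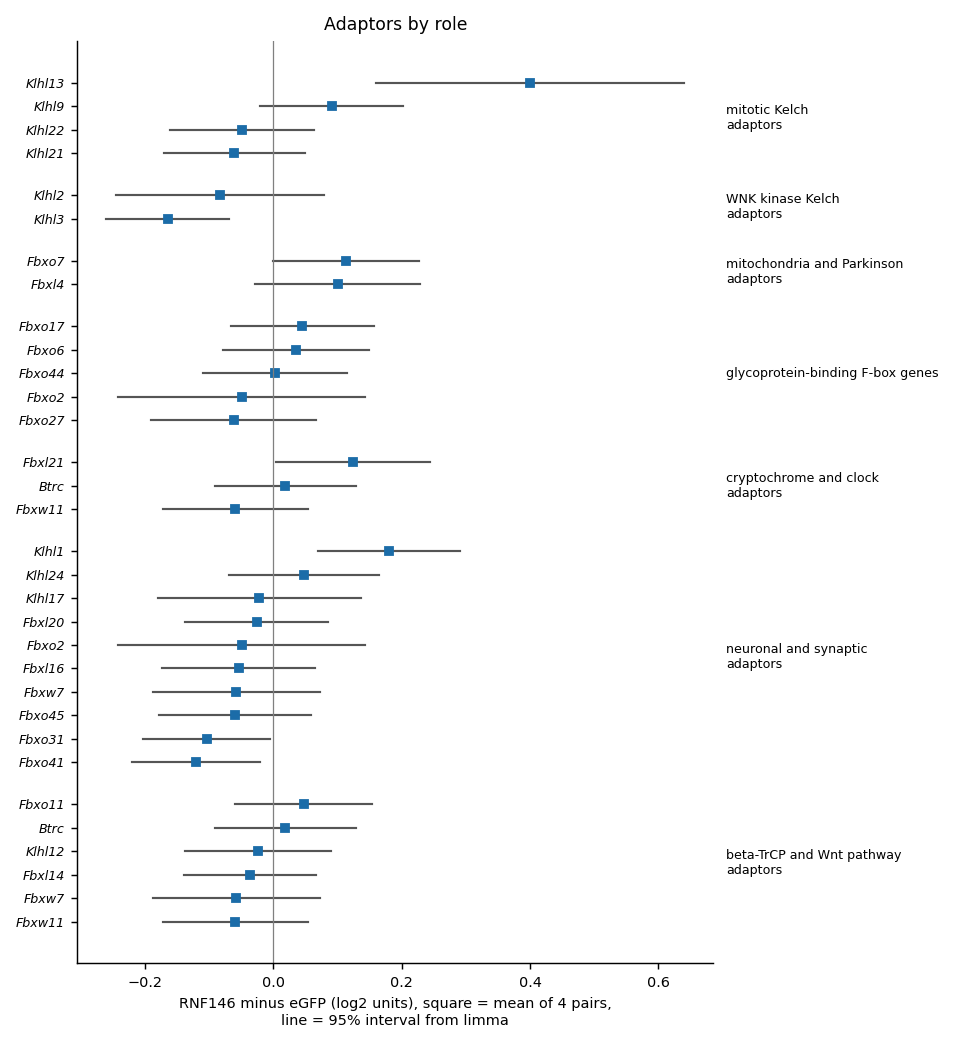
Mean difference (log2 units, horizontal axis) of the members by role. Squares are means of the 4 pairs and lines are 95% intervals from limma. The intervals of *Klhl13*, *Klhl1* and *Fbxl21* lie above 0 and those of *Klhl3*, *Fbxo41* and *Fbxo31* below it, and no gene was called after adjustment.

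The lowest member was *Klhl3*, which together with *Klhl2* forms the CUL3 adaptors for WNK kinases and is mutated in a familial hypertension with high potassium. *Klhl3* (chromosome 13 of GRCm39, 58148042 to 58261469, minus strand) had values of 11.67, 11.67, 11.65 and 11.67 in eGFP libraries 1 to 4 and 11.49, 11.49, 11.51 and 11.49 in the Rnf146 libraries. The pair differences of -0.18, -0.18, -0.13 and -0.17 were all below 0 and had the smallest SD among the named members. The mean was -0.16 ± 0.023 (95% interval -0.26 to -0.069; adjusted p = 0.16, limma), the smallest adjusted p among the 83. *Klhl2* had -0.31, 0.12, 0.015 and -0.16, with pairs on both sides of 0, a mean of -0.084 ± 0.19 and an interval of -0.25 to 0.078.

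The highest member was *Klhl13*, which with *Klhl9* forms a CUL3 ligase that moves Aurora B off mitotic chromosomes. *Klhl13* (chromosome X of GRCm39, 23085270 to 23231432, minus strand) had values of 10.20, 9.89, 10.14 and 10.25 in eGFP libraries 1 to 4 and 10.44, 10.75, 10.50 and 10.39 in the Rnf146 libraries. All 4 pair differences were above 0, at 0.24, 0.86, 0.35 and 0.14, and the second pair was more than 0.5 above each of the others. The mean was 0.40 ± 0.32 (95% interval 0.16 to 0.64; adjusted p = 0.173, limma) and was 0.25 without the second pair. When a covariate for the mean level of striatal and septal markers was added to the fit, the difference of *Klhl13* was 0.0075. Those markers were themselves higher on average in the Rnf146 libraries. *Klhl9* was above 0 in all pairs as well, with a mean of 0.091 ± 0.086 (adjusted p = 0.491, limma). The other mitotic Kelch genes had means below 0, -0.061 for *Klhl21* and -0.049 for *Klhl22*, an adaptor for PLK1.

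The promoters of the 3 members with the smallest adjusted p-values are shown because their sequences bear on whether the Wnt-responsive TCF/LEF core lies next to the start. Each is the 250 bases upstream of an annotated start in RefSeq (GRCm38.p6, minus strand, written 5′ to 3′ along the gene): *Klhl3* at chr13:58113648-58113897, *Klhl1* at chr14:96519035-96519284 and, for *Klhl13*, the most upstream of its 5 starts at chrX:23365083-23365332.
Klhl3: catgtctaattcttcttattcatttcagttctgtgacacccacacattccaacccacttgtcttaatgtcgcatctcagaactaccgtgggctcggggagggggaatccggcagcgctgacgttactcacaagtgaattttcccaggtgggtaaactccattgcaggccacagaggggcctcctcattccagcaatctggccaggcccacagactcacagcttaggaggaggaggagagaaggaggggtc
Klhl1: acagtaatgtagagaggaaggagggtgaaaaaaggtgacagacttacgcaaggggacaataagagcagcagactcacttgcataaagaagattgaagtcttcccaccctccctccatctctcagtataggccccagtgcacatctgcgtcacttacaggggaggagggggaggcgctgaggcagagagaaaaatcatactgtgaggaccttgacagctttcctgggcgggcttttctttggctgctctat
Klhl13: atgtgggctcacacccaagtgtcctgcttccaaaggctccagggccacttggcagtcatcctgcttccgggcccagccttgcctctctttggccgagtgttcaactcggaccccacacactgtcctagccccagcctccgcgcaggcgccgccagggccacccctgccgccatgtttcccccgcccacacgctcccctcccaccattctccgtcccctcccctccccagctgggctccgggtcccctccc
Neither the TCF/LEF core (CTTTGAT, or ATCAAAG on the other strand) nor the E-box CACGTG, the palindrome bound by clock factors, was found in them, so no letters are in capitals. Over the 94 promoters of the 66 members with an entry, the TCF/LEF core was found in 0, against 3.21% of all 32851 promoters of this length. The E-box was found in 7 (7.45%, against 6.02%), belonging to *Fbxl2*, *Fbxo10*, *Klhl20*, *Klhl22* and *Klhl28*. A match or its absence describes only these letters in this window.

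Other members had 4 pairs of one sign as well. *Klhl15*, an adaptor for a regulatory subunit of the phosphatase PP2A, had 0.36, 0.24, 0.021 and 0.071 and a mean of 0.17 ± 0.15 (adjusted p = 0.325, limma). *Klhl4* had 0.00089, 0.10, 0.21 and 0.24 and a mean of 0.14 ± 0.11 (adjusted p = 0.352, limma). Pairs 3 and 4 were the low ones for *Klhl15* and pair 1 for *Klhl4*. *Fbxo3* and *Fbxo38*, an adaptor for the receptor PD-1 in T cells, both had a mean of 0.10. *Klhl5* and *Fbxo28* were above 0 in all pairs as well, at 0.076 and 0.055.

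On the lower side, *Klhl40*, a muscle Kelch gene of nemaline myopathy, had -0.076, -0.23, -0.073 and -0.19 and a mean of -0.14 ± 0.082 (adjusted p = 0.269, limma). *Klhl33* was the other of the 2 muscle Kelch genes in the table, at -0.045 ± 0.13. *Klhl40* is weakly expressed in this tissue, and its mean on the scale of estimated log2 normalized counts was -0.43. *Klhl26* had a mean of -0.12 ± 0.062, and *Fbxl18*, *Fbxo42* and *Fbxo46* had -0.091, -0.068 and -0.064. *Fbxl7*, at -0.048, completed the members below 0 in all pairs together with *Fbxl14*. *Klhl40* overlaps *Hhatl*, and *Fbxo46* overlaps *Qpctl*, on opposite strands, with differences of -0.019 for *Hhatl* and 0.0089 for *Qpctl*. In all, 23 members overlap another gene of the table on the opposite strand, and whether the authors' quantification used strand is not given in the sources used here.

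Some members had wide pair differences of both signs. *Fbxo32*, which encodes the atrophy ligase atrogin-1, had values of 9.71, 9.38, 9.33 and 9.43 in eGFP libraries 1 to 4 and 9.45, 9.78, 9.84 and 9.74 in the Rnf146 libraries. Its pair differences were -0.26, 0.40, 0.51 and 0.31, with the first pair opposite to the others, and a mean of 0.24 ± 0.34 (adjusted p = 0.434, limma). Without the first pair the mean was 0.41 and the adjusted p was 0.0282 (limma), the only member call with any pair left out. That fit called 1 of 83 members beside 421 of all 15039 genes (2.8%), so the call does not set the members apart. With the striatal and septal covariate the difference of *Fbxo32* was -0.068. *Klhl23* had differences of 0.33, 0.26, -0.15 and 0.0029 and *Fbxw17* of -0.19, 0.12, 0.28 and -0.19, with means of 0.11 and 0.0041. The list of cell cycle and stress F-box genes, to which *Fbxo32* belongs, had 0 of 7 called and a median of 0.032.

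The other 42 members, which include genes of the cell cycle and muscle lists, had means between -0.080 (*Fbxl12os*) and 0.12 (*Klhl36*), and the smallest adjusted p among them was 0.497 (limma). *Klhl36* had 0.078, 0.30, -0.10 and 0.20, with pair 3 below 0 and the others above. *Fbxl12* and its antisense *Fbxl12os* had means of 0.055 ± 0.088 and -0.080 ± 0.11, with opposite signs in pairs 2 and 3. *Fbxo5*, which encodes the mitotic inhibitor EMI1, had 0.040, -0.050, 0.33 and -0.080, and *Fbxl5*, an iron-sensing adaptor, had -0.024, 0.018, -0.019 and -0.16. Pair 3 was the farthest from 0 for *Fbxo5* and pair 4 for *Fbxl5*.

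Markers of other cells differed between the pairs of libraries in ways that some adaptors shared. The mean over 11 genes of striatal medium spiny neurons differed by -0.10, 1.29, 0.69 and 0.26 in pairs 1 to 4, with 0 of 11 called. All 11 genes had means above 0, and 10 had an unadjusted p below 0.05 (limma), against 12.4% of all genes. The eGFP libraries held mean levels between 9.77 and 10.5 for this list and the Rnf146 libraries between 10.4 and 11.1. The second pair was the highest for these markers and for *Klhl13*. With the striatal and septal covariate, which took *Klhl13* to 0.0075, the difference of *Klhl3* was -0.16 and that of *Klhl1* was 0.18. Both marker lists were higher on average in the Rnf146 libraries, by 0.54 (striatal) and 0.50 (septal), so the covariate partly follows the group. The smallest adjusted p of any member in that fit was 0.769 (limma). These values cannot tell the part of the markers from that of the group. Of the 41 members that the naming rule took in, 8 changed sign with the covariate, 19 moved by more than 1.5 times with the same sign and 14 moved by less. That fit left 1 called gene in the whole table, *Rnf146*.

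The mean over 12 oligodendrocyte genes differed by -0.15, 0.47, 0.90 and 0.54, with 0 of 12 called. All 12 genes had means above 0 and an unadjusted p below 0.05 (limma). Pair 1 of the list mean was below 0 and pair 3 the highest, as was the case for *Fbxo32*. The mean over 6 septal and basal forebrain genes differed by 0.56, 0.64, 0.26 and 0.56, with 5 of 6 called higher, and that over 8 genes of GABAergic interneurons by 0.13, 0.23, 0.21 and 0.22, with 4 of 8 called higher (*Gad1*, *Gad2*, *Slc32a1* and *Dlx1*). The other 4 interneuron genes had means below 0 and were not called, at -0.23 for *Vip*, -0.11 for *Lhx6*, -0.057 for *Sst* and -0.027 for *Pvalb*. The mean over 10 genes of cortical excitatory neurons differed by -0.24, -0.36, -0.029 and -0.18, with 2 called lower (*Slc17a7* and *Neurod2*). That over 9 microglial genes differed by -0.17, -0.24, -0.080 and -0.10, with 0 called. Means were below 0 in 9 of the 10 cortical genes and in all 9 microglial genes. An unadjusted p below 0.05 (limma) was found for 6 cortical and 4 microglial genes. The lowest value of a cortical marker in any library was 8.89, against 7.86 for the lowest in the table. None of 8 astrocyte and 8 vascular markers was called, and of 3 ependymal and choroid plexus markers 1 was called higher (*Foxj1*, 0.32 ± 0.10). The part of these cell types in the values of the adaptors was not tested.

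**Figure D4:**
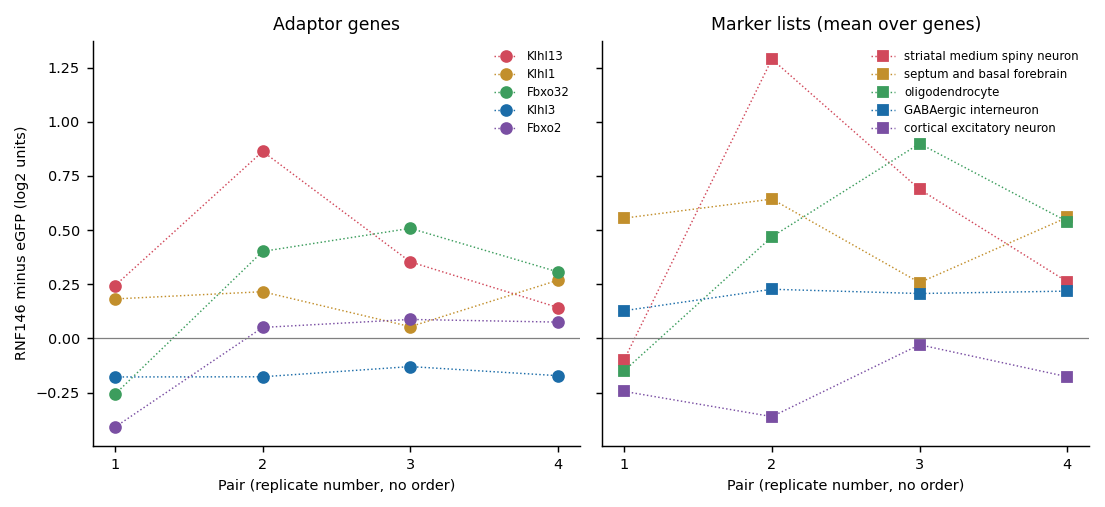
Pair differences (log2 units, vertical axis) of 5 adaptor genes on the left and of the mean over each of 5 marker lists on the right, against the replicate number of the pair, which has no order. Dotted lines join the pairs of a gene or list. *Klhl13* and the striatal list are highest in pair 2, *Fbxo32* and the oligodendrocyte list are lowest in pair 1 and highest in pair 3, and *Klhl3* lies between -0.18 and -0.13 in every pair.

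Of the 38 genes for cullins, linker and RING subunits, neddylation enzymes and COP9 or CAND exchange factors, 0 were called by limma. An unadjusted p below 0.05 (limma) was found for 3 of the 38, beside 12.4% of all genes. With 1.25% of all genes called, a count of 0 here does not set these genes apart from the table. The same holds for a count of 0 in the lists of other adaptors or of substrates and partners. *Cul1*, the scaffold of the F-box adaptors, had a mean of -0.021 ± 0.062 (95% interval -0.12 to 0.083) and *Cul3*, the scaffold of the Kelch adaptors, -0.056 ± 0.074 (-0.16 to 0.051). *Skp1*, the linker to the F-box, had 0.026 ± 0.080 (-0.083 to 0.14) and *Rbx1*, the RING subunit, -0.057. The highest of these 38 was *Cops2*, a COP9 subunit that helps remove NEDD8 from cullins, at 0.16 ± 0.082 (adjusted p = 0.219, limma), and the lowest was *Cops8* at -0.12 ± 0.083. The extremes among the cullins were *Cul2* (0.093) and *Cul9* (-0.11), and those among the neddylation genes *Dcun1d4* (0.12) and *Nedd8* (-0.11).

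Of the 156 genes in the lists outside the rule, 1 was called, and it was a Kelch gene under another symbol. With 1.25% of all genes called, 1 call does not set these lists apart from the table. *Enc1* (chromosome 13 of GRCm39, 97377605 to 97389547, plus strand) encodes a BTB-Kelch protein of cortical neurons that binds actin. Its values were 14.55, 14.57, 14.50 and 14.53 in eGFP libraries 1 to 4 and 14.25, 14.23, 14.30 and 14.27 in the Rnf146 libraries, and it fell in all 4 pairs, with differences of -0.29, -0.34, -0.20 and -0.26. The mean was -0.27 ± 0.059 (95% interval -0.38 to -0.16; adjusted p = 0.0601, limma). Left out one at a time, pairs 2 and 4 each ended the call, with an adjusted p of 0.294 from limma in both fits. With the striatal and septal covariate the difference was -0.24 and the adjusted p was 0.898 (limma). The cortical excitatory markers were lower in the same pairs, as given above, and their part in the difference of *Enc1* was not tested.

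In the other adaptor families, *Enc1* and *Dcaf1* lay below *Klhl3*, the lowest member, and no gene lay above *Klhl13*. Of 17 F-box and Kelch genes under other symbols, 1 was called, and the highest was *Kbtbd11* at 0.22 ± 0.16 (adjusted p = 0.199, limma). None of 26 BTB and KCTD adaptors of CUL3 was called, with extremes at *Kctd15* (0.25 ± 0.42) and *Shkbp1* (-0.16 ± 0.11). None of 21 DCAF adaptors of CUL4 was called, with extremes at *Phip* (0.13 ± 0.12) and *Dcaf1* (-0.18 ± 0.28). None of 35 SOCS-box and VHL-box adaptors was called, with extremes at *Fem1c*, an adaptor for C-terminal degrons (0.22 ± 0.085; adjusted p = 0.12, limma), and *Socs7* (-0.13 ± 0.10). The median differences of these lists lay between -0.026 and 0.0091.

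**Figure D5:**
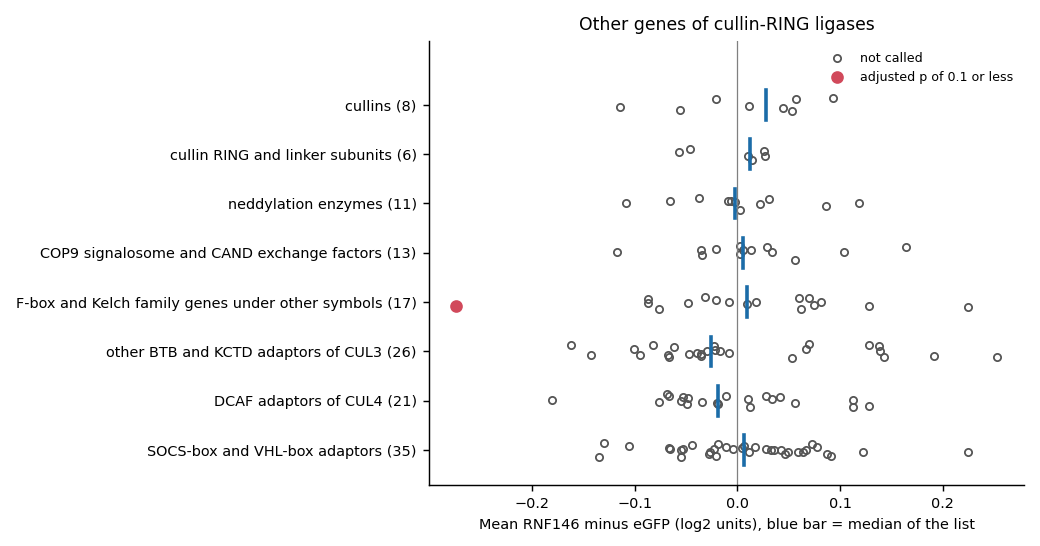
Mean difference (log2 units, horizontal axis) of the genes of cullin-RING ligases outside the F-box and Kelch symbols, by list, with the number of genes in the table. Open circles are genes that were not called, the red point is *Enc1*, and blue bars are medians. The medians lie between -0.026 and 0.028.

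Several substrates of the adaptors and pathway partners were measured in the same libraries. *Ctnnb1*, the gene of β-catenin, had a mean difference of 0.044 ± 0.17 (95% interval -0.11 to 0.20), *Axin1* -0.031 ± 0.024 (-0.13 to 0.071) and *Gsk3b* 0.089 ± 0.055 (-0.014 to 0.19). *Wnk1*, a target of *Klhl3* and *Klhl2*, had 0.051 ± 0.18 (-0.11 to 0.21). None of the 19 substrates and partners in the table was called, and their median difference was -0.033. These are RNA levels, and the proteins on which the adaptors act were not measured in these libraries.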

How the data were processed

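RNA sequencing libraries of the PFC (TruSeq stranded mRNA) were made from 4 Rnf146-overexpressing and 4 eGFP-overexpressing mice. The authors trimmed reads with Cutadapt and quantified them with Salmon 1.9.0 against GENCODE vM30 (GRCm39). The submitters' processing notes also name DESeq2. The deposited values are log2 values between 7.86 and 18.8. Their normalization and centring are not given in the sources used here, and the centring was read from the pair sums, which differ by at most 1.4e-13. No count test was run, because the table holds no counts, and the precision from counting is unknown.

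Groups and replicate numbers came from the sample labels. The pairing rests on those numbers and on the centring, by which the deviations of paired libraries from their group means mirror each other. Whether paired mice had a litter, cage or batch in common is not given in the sources used here. P-values and intervals rest on these 4 pairs, with each gene's variance drawn by limma towards that of genes of similar level. This used 3 residual and 5.4 prior degrees of freedom. The interval of *Klhl3*, whose pairs lay close together, is therefore wider than its own pairs would give. That of *Klhl13*, whose pairs were far apart, is narrower. Differences were fitted over all 15039 genes with limma 3.58.1 in R 4.3.3 (eBayes with trend, replicate number as block), with Benjamini-Hochberg adjustment and calls at an adjusted p of 0.1. An exact sign-flip test of 4 pairs has 16 combinations, and its two-sided p cannot go below 0.125. The fit was also run on simulated data centred in the same way. There each gene varied independently and the spreads were shuffled over genes. The simulation therefore does not cover shifts common to many genes or a spread that depends on level.

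The members and gene lists were chosen with earlier results of these data known. Named members were those of the Wnt, clock, neuronal, glycoprotein, mitochondrial, WNK and mitotic lists, the 8 highest and the 8 lowest with 4 pairs of one sign, and the 6 with the widest range between pairs. The few others named, among them genes of the cell cycle and muscle lists, were chosen after their values were seen. Of the genes outside the rule, those named were the called ones and the extremes of each list. A few scaffold, substrate and partner genes were also named, chosen after their values were seen. Log2 normalized counts with an offset of 0.5 were estimated with a variance-stabilizing curve fitted to mean counts that the study lists for 294 genes, and are approximate. Coordinates are from GENCODE vM39 (GRCm39). No column of sample values was left unused. Python 3.11.15 with pandas 2.3.3 was used for annotation, promoters and figures. Members share at most 1.17% of their 31-base words with another member. Alternatives were another normalization, filter, variance prior, threshold or scale, a marker covariate, no block, and each pair left out. The values of 1 member are not reported here.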

Additional observations from a re-analysis of the deposited data

Results flagged for a closer look

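In 8 of the 83 members (9.64%), 1 of the 4 pair differences stood apart from the other 3 by Dixon's test, against 5.39% of all 15039 genes. Chance alone does this for about 1 in 20 genes. The pair that stood apart was the first for *Fbxo2* (-0.41), *Fbxl20* (0.10), *Fbxo6* (0.15) and *Klhl22* (0.078). It was the second for *Fbxl7* (-0.14) and *Fbxo38* (0.24), the third for *Klhl3* (-0.13) and the fourth for *Fbxw4* (0.052). For *Fbxo2*, which clears misfolded glycoproteins in neurons, the first pair alone set the sign of the mean, -0.049 with it and 0.071 without it. The outlying pair of *Klhl3* was the one nearest 0 among 4 values that all lay below 0. That of *Fbxo38* was the largest of 4 values above 0. *Fbxl20*, *Klhl22* and *Fbxw4* each had a single pair above 0 beside 3 below, and the outlying pair of *Fbxl7* was the farthest below 0 of 4 that all lay below it. None of the 8 genes was called with all pairs or with any pair left out.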

How the results depend on the processing

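The count of called members was 0 under median centring, quantile normalization, the filter on the lowest 25% of genes (71 members left), both other variance priors, the adjusted p of 0.05, the back-transformed values and the marker covariate. Under most of these settings 1.15% to 1.38% of all genes were called. The share was 0.532% at the adjusted p of 0.05 and 0.00665% with the covariate. At such shares a count of 0 does not set the members apart from the table. Without the replicate block 18 members (21.7%) and 3226 of all genes (21.5%) were called, because the centred libraries were then counted as 8 independent ones. For all genes, the count was 80 at an adjusted p of 0.05 and 1 with the striatal and septal covariate. Over the fits that left out 1 pair, the count for all genes ran from 14 to 421 (14 without pair 4, 42 without pair 2, 421 without pair 1) and that of members from 0 to 1, *Fbxo32* without pair 1. Members higher in every remaining pair then numbered 14 to 16 and members lower 13 to 17, since 3 pairs share a sign more often than 4. The same counts over all genes were not taken for 3 pairs, so these numbers cannot be set against the table.

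Of the 41 members that the naming rule took in, 17 were called without the block, and the block changed no other call among them. *Fbxw17* turned to -0.0081 under quantile normalization. With the covariate, signs turned for *Btrc* (-0.034), *Fbxl20* (0.041), *Fbxo27* (0.033), *Fbxo32* (-0.068), *Fbxo38* (-0.019), *Fbxo44* (-0.0082), *Fbxw17* (-0.19) and *Klhl22* (0.022). Over the fits that left out a pair, the difference crossed 0 for *Btrc* (-0.0089 to 0.052), *Fbxo2* (-0.095 to 0.071), *Fbxo44* (-0.031 to 0.034), *Fbxo6* (-0.0015 to 0.050), *Fbxw17* (-0.088 to 0.069), *Klhl12* (-0.046 to 0.014), *Klhl17* (-0.068 to 0.067) and *Klhl24* (-0.0012 to 0.073). The cause of these turns was not tested. *Rnf146* stayed called in every alternative.

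The number of pairs and the unknown depth limit all values. For 59 of 83 members the 95% interval lay inside ± 0.2 log2 units, and the scale compresses weakly expressed members. The covariate was built from the same 8 libraries, is itself higher on average in the Rnf146 libraries and takes a degree of freedom from the fit.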

Other observations

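All 3 members on the X chromosome, *Klhl4*, *Klhl13* and *Klhl15*, were higher in all 4 pairs, with means of 0.14, 0.40 and 0.17. They were singled out after their values were seen. Among the other 486 genes of the X chromosome in the table, 88 (18.1%) were higher in all 4 pairs and 15 (3.09%) lower, against 10.1% and 10.6% of 14078 autosomal genes. The median difference of these X-linked genes was 0.030 log2 units, and -0.00032 over the autosomes. It was 0.074, 0.031, 0.017 and 0.014 in pairs 1 to 4, and 12 of the 486 genes (2.47%) were called, against 174 (1.24%) on the autosomes. All mice were male by the study's methods, and whether the X-linked genes share a cell type or region was not tested.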
